A study of Mus musculus with 5 samples.

Results

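Promoter regions that were listed as open in hemogenic endothelium (HE) and in none of the other 4 stages numbered 1913, which is 2.78% of the 68846 merged regions of 5 DNaseI-seq site lists. They were chosen by position. Every listed DNaseI hypersensitive site (DHS) became a 500 bp window around its middle, and windows sharing 25% of their width or more were chained into regions, whichever stage they came from. A region was kept if it held an HE window, no window of another stage, and a centre within 2 kb of the transcription start site (TSS) of a protein-coding RefSeq gene. Each member came from 1 HE site. Members made up 11.6% of the 16497 promoter regions (95% Wilson interval 11.1% to 12.1%) and 16.2% of the 11797 regions listed in HE only. They were nearest to 1833 of 21000 protein-coding genes, a background of 8.73% against which the gene lists below are read. Intervals on shares cover counting error only, and because the members were selected on the presence of an HE site and the absence of other sites, no test is made on that pattern.

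DNaseI-seq maps chromatin that is accessible to the nuclease DNase I. The 5 lists came from an embryonic stem (ES) cell line of strain 129 with a GFP reporter at Brachyury (Bry), differentiated in vitro. The stages were mesoderm (MES, Bry+ and Flk1-), hemangioblast (HB, Bry+ and Flk1+), HE (positive for Tie2 and cKit and negative for CD41), CD41+ hematopoietic progenitors (HP) and CD11b+ macrophages (MAC). The cultures differed between them: MES and HB were sorted from embryoid bodies, HE and HP came from Flk1+ cells grown on with cytokines, and MAC from CD41+ cells taken further to macrophages. Stage and culture cannot be told apart. The study's time course also held undifferentiated ES cells with DNaseI-seq sites. No list of that stage was used, so HE only does not say whether a region was open in ES cells. There was 1 list per stage (n = 1; the MAC label names a pair of replicates, and whether its list pools them is not given in the sources used here), so no difference between stages can be set against replicate error, and absence from a list means only that no site was called.

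Hemogenic endothelium is an endothelial cell that lines embryonic vessels and gives rise to blood cells, after which the endothelial program is turned down. Promoters with many CpG dinucleotides are open in most cell types, whereas promoters poor in CpG are more often open in few. ETS factors such as ERG and FLI1, SOX factors such as SOX18, GATA2, RUNX1 and TEAD factors are among the regulators known to act in these cells.

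The sequences that show what the members look like are given first. The first promoters belong to endothelial genes with no site of another stage within 1 kb of the HE site. They are Tek, the angiopoietin receptor Tie2 that also served in the HE sort, Cdh5 (VE-cadherin), Cd34, Clec14a, Egfl7, Ptprb and Vwf. Erg and Fli1 code for ETS factors, and Hes1, a target of Notch signalling, is shown because its HE site overlapped sites of other stages. Each stretch lies inside the HE site and outside annotated exons, directly upstream of the TSS where at least 150 exon-free bases adjoined it within the site and in an intron otherwise (Tek, Cdh5 and Erg), and is printed 5′ to 3′ on the strand of the gene from GRCm38 (mm10). Capitals mark exact matches on either strand to letters that stand for the GATA factors (AGATAA), the ETS factors (CCGGAA, and CAGGAA as another core), the SOX factors (ACAAAG), the TEAD factors (CATTCC) and the RUNX factors (TGTGGT).
Tek (chr4:94739693-94739807, + strand): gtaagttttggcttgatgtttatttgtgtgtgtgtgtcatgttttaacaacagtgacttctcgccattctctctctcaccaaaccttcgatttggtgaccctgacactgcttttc
Cdh5 (chr8:104101874-104102173, + strand): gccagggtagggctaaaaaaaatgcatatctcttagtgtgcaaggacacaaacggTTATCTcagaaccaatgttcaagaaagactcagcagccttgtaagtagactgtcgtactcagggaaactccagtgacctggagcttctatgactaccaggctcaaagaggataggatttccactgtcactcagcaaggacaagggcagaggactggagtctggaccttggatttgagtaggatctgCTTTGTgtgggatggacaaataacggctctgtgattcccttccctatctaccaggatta
Cdh5 (chr8:104103374-104103673, + strand): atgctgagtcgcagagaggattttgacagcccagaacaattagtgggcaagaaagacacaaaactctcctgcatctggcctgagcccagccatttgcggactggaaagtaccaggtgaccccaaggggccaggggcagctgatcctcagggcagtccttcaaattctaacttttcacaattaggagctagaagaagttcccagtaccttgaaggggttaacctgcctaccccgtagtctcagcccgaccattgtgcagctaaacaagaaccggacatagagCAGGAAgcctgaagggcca
Cd34 (chr1:194938641-194938820, + strand): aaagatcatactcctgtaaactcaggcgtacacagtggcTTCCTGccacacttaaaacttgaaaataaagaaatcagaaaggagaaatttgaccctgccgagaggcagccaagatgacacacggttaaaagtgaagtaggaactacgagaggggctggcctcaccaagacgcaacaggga
Clec14a (chr12:58269259-58269558, - strand): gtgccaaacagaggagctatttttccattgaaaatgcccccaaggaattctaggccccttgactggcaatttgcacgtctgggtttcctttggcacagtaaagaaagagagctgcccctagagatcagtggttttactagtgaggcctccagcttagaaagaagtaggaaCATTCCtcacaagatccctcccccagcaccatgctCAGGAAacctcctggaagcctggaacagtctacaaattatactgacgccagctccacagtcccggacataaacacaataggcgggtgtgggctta
Egfl7 (chr2:26583565-26583864, + strand): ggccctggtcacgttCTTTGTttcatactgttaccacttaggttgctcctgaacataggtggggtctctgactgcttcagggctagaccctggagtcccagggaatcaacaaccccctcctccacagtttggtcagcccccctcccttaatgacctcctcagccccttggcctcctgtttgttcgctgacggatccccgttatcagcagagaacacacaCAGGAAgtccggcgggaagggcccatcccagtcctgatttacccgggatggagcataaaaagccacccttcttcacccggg
Ptprb (chr10:116301074-116301373, + strand): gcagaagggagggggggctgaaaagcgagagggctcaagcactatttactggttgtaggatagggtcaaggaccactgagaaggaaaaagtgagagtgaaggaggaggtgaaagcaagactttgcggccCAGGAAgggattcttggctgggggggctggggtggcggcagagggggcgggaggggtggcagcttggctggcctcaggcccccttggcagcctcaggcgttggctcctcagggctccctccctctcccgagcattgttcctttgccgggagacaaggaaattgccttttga
Vwf (chr6:125552648-125552947, + strand): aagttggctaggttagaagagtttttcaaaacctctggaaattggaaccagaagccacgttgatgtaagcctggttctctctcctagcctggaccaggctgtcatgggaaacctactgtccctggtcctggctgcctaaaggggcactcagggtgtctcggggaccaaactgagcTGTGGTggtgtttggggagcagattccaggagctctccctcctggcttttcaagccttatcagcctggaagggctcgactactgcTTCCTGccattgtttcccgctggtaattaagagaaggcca
Erg (chr16:95458770-95459069, - strand): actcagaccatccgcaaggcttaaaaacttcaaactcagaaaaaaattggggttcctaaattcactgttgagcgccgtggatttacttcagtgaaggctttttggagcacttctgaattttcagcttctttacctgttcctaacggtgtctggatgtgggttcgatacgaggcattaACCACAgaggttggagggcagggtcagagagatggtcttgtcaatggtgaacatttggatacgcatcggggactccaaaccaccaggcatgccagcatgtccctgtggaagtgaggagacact
Fli1 (chr9:32541453-32541752, - strand): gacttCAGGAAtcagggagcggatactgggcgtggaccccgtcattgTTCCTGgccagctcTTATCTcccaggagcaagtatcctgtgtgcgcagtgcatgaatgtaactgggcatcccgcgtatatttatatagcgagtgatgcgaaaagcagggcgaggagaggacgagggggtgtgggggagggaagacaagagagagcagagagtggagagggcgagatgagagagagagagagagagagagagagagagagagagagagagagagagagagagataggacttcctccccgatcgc
Hes1 (chr16:30065057-30065356, + strand): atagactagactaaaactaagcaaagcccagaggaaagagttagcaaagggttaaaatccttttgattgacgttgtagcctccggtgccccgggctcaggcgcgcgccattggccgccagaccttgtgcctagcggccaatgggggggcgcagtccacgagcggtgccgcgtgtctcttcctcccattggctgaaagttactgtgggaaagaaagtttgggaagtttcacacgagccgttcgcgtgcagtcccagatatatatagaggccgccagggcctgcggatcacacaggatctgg

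These stretches were poor in CpG at most of the endothelial genes. The 300 bases of Clec14a held 4 CpG dinucleotides, those of Vwf 4 and those of Egfl7 8, whereas the 300 bases of Hes1 held 19 and those of Fli1 13. The CAGGAA form of the ETS core occurred in the stretches of Cdh5, Cd34, Clec14a, Egfl7, Ptprb, Vwf and Fli1, and CCGGAA in none of the 11. A GATA match lay in the first Cdh5 stretch, 304 bp downstream of the TSS, and in that of Fli1, 239 bp upstream. The Clec14a stretch held the TEAD letters 130 bp and the ETS letters 95 bp upstream of its TSS. No capitals fell in the short Tek intron stretch or in that of Hes1, which says only that these letters are not in these windows.

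The label "HE only" was first checked against the sites as deposited, whose widths the 500 bp windows leave out. The HE site of 916 members (47.9%, 45.7% to 50.1%) shared at least 1 bp with a site of another stage. It overlapped a site of MES for 700 members, of HB for 782, of HP for 539 and of MAC for 488, and it overlapped sites of all 4 other stages for 370. The share rests on how the sites are set: it was 5.50% where deposited intervals were merged in place of windows, 80.2% with sites of at least the median width of their list and 72.2% after every list was trimmed to the same number of wide sites. At the level of the deposited sites these promoters were therefore not listed in HE alone. A further 219 members had a site of another stage less than 1 kb from the HE site. The remaining 778 members (40.7%, 38.5% to 42.9%) had none within 1 kb, and 272 of them had none within 20 kb. The 3 classes are called overlapping, near and apart.

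The same check gave 36.4% for promoter regions listed in MES only, 37.6% for HB only, 46.5% for HP only and 27.8% for MAC only. It gave 7.80% for the 9884 HE-only regions over 2 kb from a TSS. Overlap with a site of another stage was thus a feature of promoter regions of every single stage and it was rare in HE-only regions away from promoters.

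**Figure D1:**
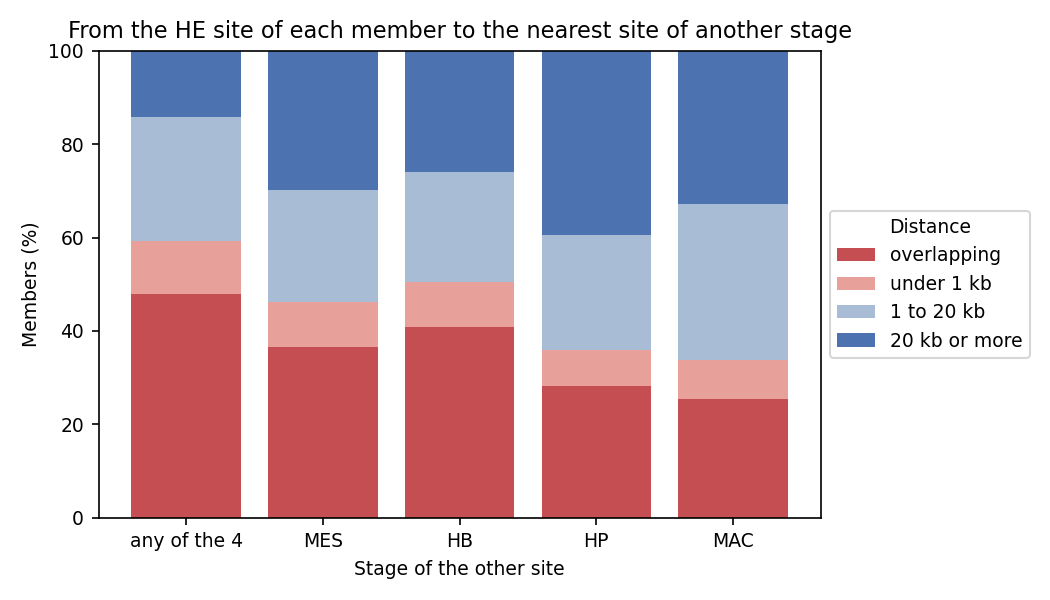
Share of the 1913 members (vertical axis, %) by the distance from the HE site to the nearest deposited site of any other stage (left bar) and of MES, HB, HP and MAC (other bars). Overlapping sites make up 47.9% of the left bar, and 40.9% of the HB bar against 25.5% of the MAC bar.

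At most overlapping members the HE site was wider than the site of the other stage and ran further into the gene. Their median HE width was 1700 bp, against 900 bp for the near and 1000 bp for the apart members. It was 1200 bp over all 33305 HE sites, but 1600 bp over the 12388 promoter regions open in HE. The overlapping members were thus near the usual width of HE promoter sites. Compared with the site of another stage that overlapped it most, the HE site was wider for 755 of the 916 (82.4%), and the median overlap was 694 bp. The HE site reached at least 500 bp further on the downstream side for 612 members (66.8%) and on the upstream side for 197 (21.5%). The middle of the HE site lay at a median of 493 bp downstream of the TSS and that of the other site at 7 bp. The windows of the 2 sites were kept in separate regions although the sites themselves overlapped. The distance between the middles is therefore largely set by the rule, since a member shared less than 25% of its window with any window of another stage. Sites with middles that far apart overlap only if they are wide enough, so the width of this class is partly set by the selection too. The rule names no side, and the downstream and upstream shares are given as a description.

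The middle of promoter sites lay downstream more often in the HE list than in the others, also outside the members. Of HE sites with the middle within 2 kb of a TSS, 28.9% had it over 250 bp downstream, compared with 11% in MES, 12% in HB, 8.25% in HP and 12.8% in MAC. The HE value includes the members, which were chosen partly through the position of the middle. Without the sites of promoter regions listed in that stage alone (for HE the members), a comparison added after the data were seen, the shares were 23.6% in HE, 10.2% in MES, 11.2% in HB, 7.86% in HP and 8.91% in MAC. With all promoter sites included, their median width was 1600 bp in HE, and 1000 (MES), 1200 (HB), 1100 (HP) and 800 bp (MAC) elsewhere. The part of the width of HE sites in the HE-only pattern was not tested. The same splitting seen from the other side gave promoter regions listed in every stage but HE. Of 487 such regions, 367 (75.4%) were overlapped by the HE site of a member. This follows from the windows and is not a separate result.

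Hes1 was an example. Its HE site ran from 538 bp upstream to 1762 bp downstream of the TSS, its MES site from 1475 bp upstream to 225 bp downstream and its HB site from 2010 bp upstream to 290 bp downstream. The HE site overlapped these by 763 bp and 828 bp and the HP site by 641 bp, and MAC had a site 511 bp away. Every stage but MAC was therefore listed at the Hes1 TSS. Bmpr2, a BMP receptor with an HE site of 2600 bp, overlapped MES, HB, HP and MAC sites by 1200, 1300, 1100 and 900 bp. Id1, a target of BMP signalling, and Efnb2, the ligand ephrin-B2, also overlapped sites of all 4 other stages.

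The endothelial promoters Tek, Cdh5, Sox18 and Robo4 had another layout. The Tek region (chr4:94739308-94739807) lay under an HE site of 1700 bp that spanned 581 bp upstream to 1119 bp downstream of the TSS. The nearest site of another stage was 28.1 kb away in MAC and 124 kb away in MES, HB and HP. Cdh5 had a pair of members, at 399 bp (chr8:104101774-104102273) and 1899 bp (chr8:104103274-104103773) downstream of its TSS. HP and MAC were listed further upstream of Cdh5, at 1.48 kb and 1.80 kb from the first HE site, where HE also had a site. Robo4, a receptor of vascular guidance, had an HE site of 2000 bp and no site of any other stage closer than 18.1 kb. Sox18 had its HE site within the gene (1400 bp) and a MES site 3.92 kb away. At Fli1 the MAC site began at the base where the HE site of 2100 bp ended, so the promoter was listed in both stages in adjoining stretches. At Eng, an endothelial TGF-beta co-receptor, a MAC site of 200 bp lay inside the HE site of 1800 bp.

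**Figure D2:**
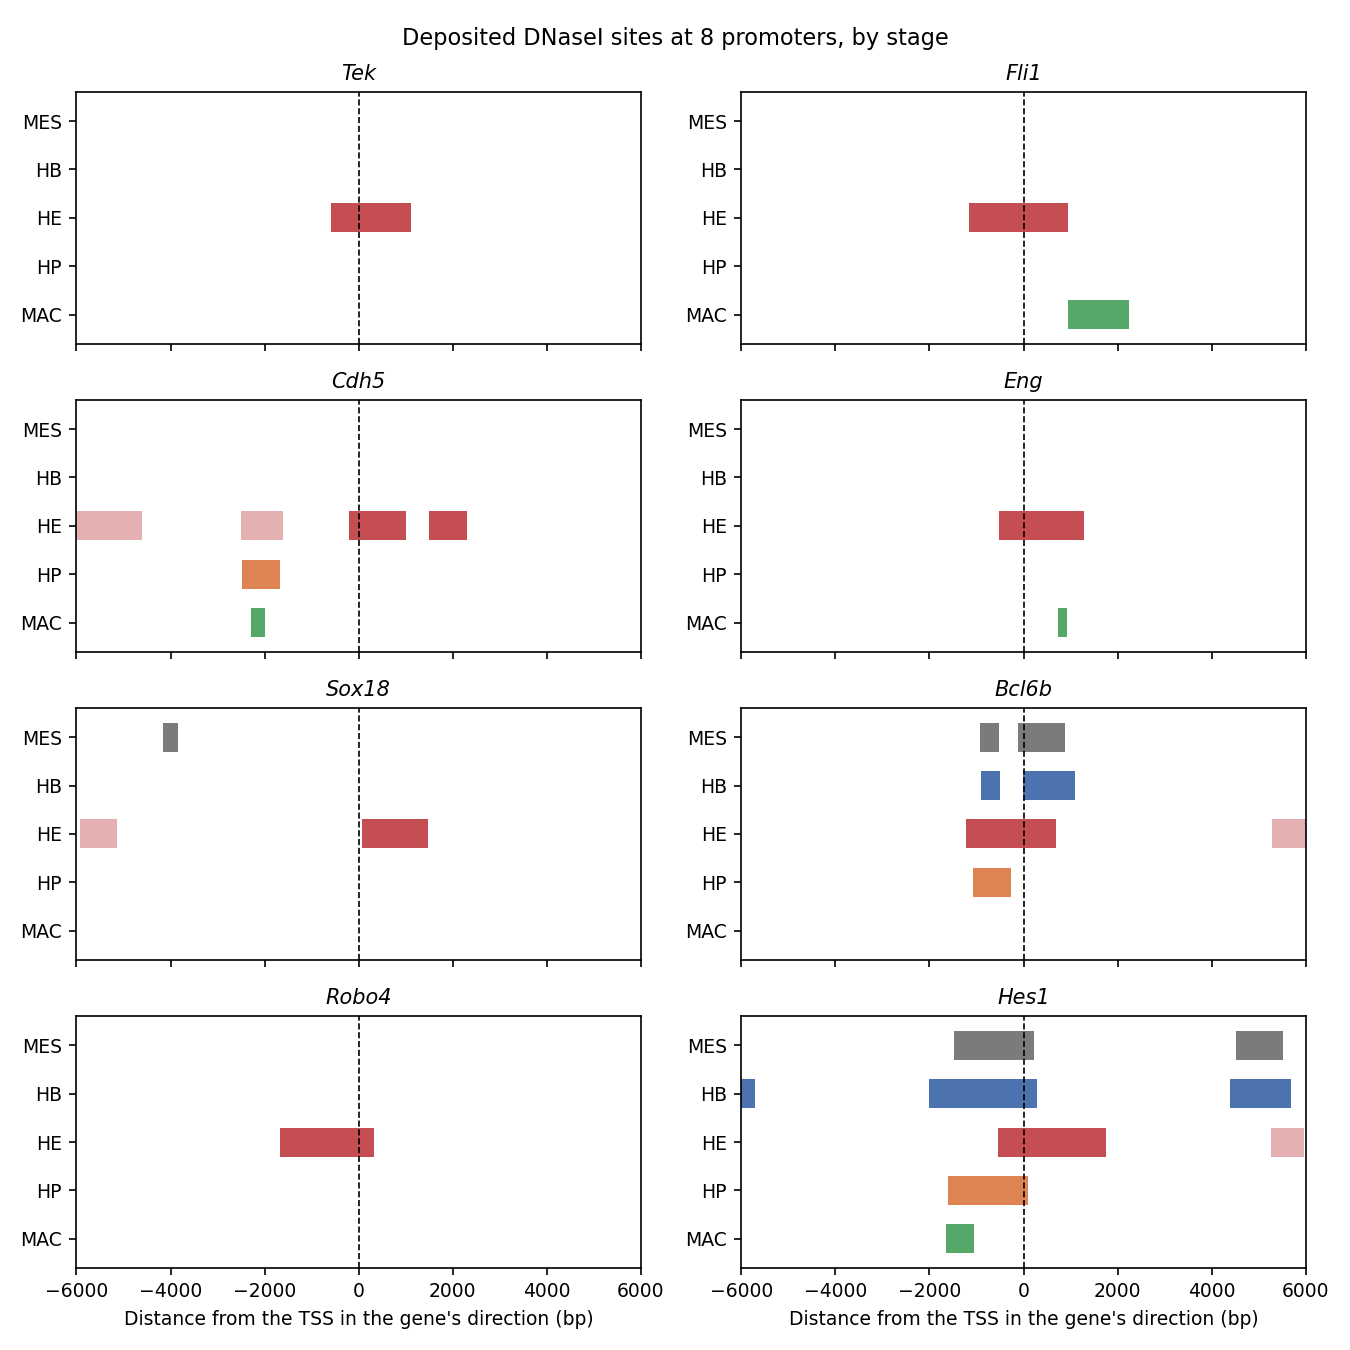
Deposited sites of the 5 stages (rows) within 6 kb of the TSS (dashed line) of 8 genes; the horizontal axis is the distance from the TSS in the direction of the gene, dark red marks the HE sites of members and light red other HE sites. Tek and Robo4 show a site in HE alone, whereas the HE site of Hes1 overlaps those of MES, HB and HP and that of Eng holds a MAC site of 200 bp.

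The position of the members is given as a description, since the rule itself used it: an HE window was dropped where it shared its place with a window of another stage, and such windows lay mostly at the TSS. The median centre was 382 bp downstream of the TSS (quartiles 77 bp upstream and 743 bp downstream), and 33 bp downstream over all promoter regions, which include the members. Of the members 44.1% were centred 250 to 1000 bp downstream (41.9% to 46.3%), compared with 14.5% of all promoter regions and 6.76% of the 7471 promoter regions listed in all 5 stages. The share was 58.1% in the overlapping and 31.4% in the apart class. Within 100 bp of the TSS were 9.25% of members, 16.1% of the apart class and 37.5% of all promoter regions. By annotation of the centre, 49.7% of members lay in an intron, 23.8% in an untranslated exon, 11.6% in a coding exon and 15.0% outside protein-coding transcripts, whereas all promoter regions had 25.4% in introns and 38.7% in untranslated exons. The HE site itself covered the TSS for 58.1% of members and for 60.8% of the apart class. At the edge of the rule, the members at Hcfc2 and Zfp217 were centred 1996 and 2000 bp from the TSS, and the regions at Rspo3 and D7Ertd443e lay just outside at 2006 and 2007 bp. The windows of 398 members overlapped a window of another stage by less than the minimum, at most by 124 bp.

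In CpG content the members stood between the constitutive promoters and those of macrophages. CpG-rich means here that GC made up at least 0.5 of the central 500 bp and that CpG occurred at 0.6 or more of the frequency expected from C and G. This held for 792 members (41.4%, 39.2% to 43.6%), 50.3% of the overlapping and 34.1% of the apart class (30.8% to 37.5%). Of all promoter regions 65.9% were CpG-rich, of those listed in all 5 stages 88.7%, and of the 1391 listed in MAC only 10.6%. The HE-only regions over 2 kb from a TSS had 2.09%. CpG was measured around the region centre, and the sets differ in position. Centred within 500 bp of the TSS were 43.9% of members, 95.7% of regions of all 5 stages and 36.3% of MAC-only regions. The part of position in these shares was not tested. Myb, Sox18, Ptprb, Prkg1 and Lhx8 were CpG-rich members of the apart class, and Tek, Cdh5, Cd34, Robo4, Vwf and Clec14a were not CpG-rich.

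**Figure D3:**
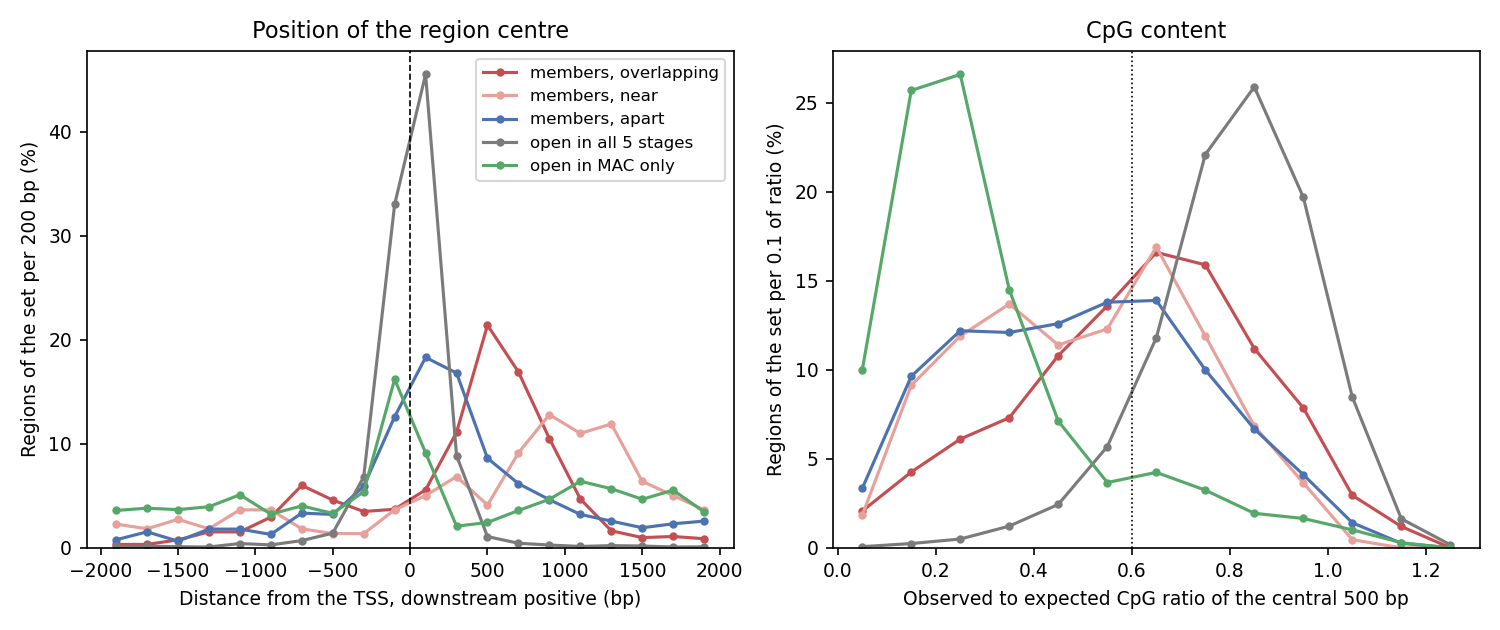
Left, distance of the region centre from the TSS (horizontal axis, bp, downstream positive) for the 3 classes of members, promoter regions listed in all 5 stages and those listed in MAC only, as the share of each set per 200 bp. Right, observed over expected CpG in the central 500 bp of the same sets, with the threshold of 0.6 dotted; the apart class has a median ratio of 0.501 and the regions of all 5 stages 0.823.

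Other promoter regions of the same gene were counted next. For 1297 members (67.8%, 65.7% to 69.9%) the gene had another region within 2 kb of a coding TSS that was listed in another stage, which held for 915 of the 916 overlapping, 212 of the 219 near and 170 of the 778 apart members (21.9%). For the overlapping and near classes this largely restates how they were defined, since a site of another stage on or near the HE site forms such a region. The majority over all members was lost when deposited intervals replaced the windows (41.5%) and with sites of at least the median width of their list (46.2%). The most frequent pattern of such a region, over all 3 classes, was MES, HB, HP and MAC without HE, with 443 regions beside members, followed by MAC alone with 242 and MES with HB with 236. In the apart class, 584 members (75.1%) had a gene with no other promoter region in any list. Tek, Cd34, Robo4, Sox18, Clec14a, Vwf and Vcam1 were among them. Where a gene had a coding TSS over 2 kb from its member, as for 400 members, another stage was listed at that TSS for 259 (64.8%). Erg was such a gene, since its other promoter was listed in HB and HE. Mecom, a regulator of blood stem cells, had a region of MES and HB at its other promoter.

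Genes with a member also held more HE-only regions at a distance than genes overall. At least 1 HE-only region 2 to 100 kb away had the gene as its nearest for 42.1% of genes with a member (39.9% to 44.4%), 36.9% of genes with an apart member and 23.2% of all protein-coding genes. For at least 3 such regions the shares were 8.62%, 7.09% and 3.13%. Of the genes with 9 or more such regions, Dlc1 with 10 and Nfib and Tmcc3 with 9 each held a member. Kdr, the VEGF receptor Flk1, had the most with 11 and held no member. Nor did Smad7 and Ets1 with 10 each, or Palld and Spink13 with 9 each. Of genes with 8, Ptprb and Ankrd46 held a member and Tmem108 and Zfp366 did not. Tek, which held a member, had 4.

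Members were next read by the role of their gene, over 20 lists of named genes. The lists are of well-studied developmental and cell type genes, and 156 of their 692 genes (22.5%) held a member, so 22.5% is the background for a single list as well as the 8.73% of all genes. For the apart class the share was 3.63% of all genes and 8.96% of the listed genes (62 of 692).

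Of 3 endothelial lists together, 34 of 99 genes (34.3%) held a member and 17 (17.2%) an apart member. Among angiogenic receptors and ligands 11 of 32 genes held a member, and those apart were Tek, Acvrl1 (the receptor ALK1), Egfl7, Nos3 (endothelial nitric oxide synthase) and Ptprb (the phosphatase VE-PTP, which acts on Tie2 and VE-cadherin). At Acvrl1 the nearest sites of MES, HB, HP and MAC were 5.62, 5.63, 16.3 and 5.09 kb away. At Ptprb they were 12.3, 8.38, 12.5 and 87.8 kb away. Of junction and surface genes 11 of 34 held a member and 9 of these were apart: Adgrf5, Cd34, Cdh5, Clec14a, Ecscr, Procr, Robo4, Vcam1 and Vwf. Vcam1, an adhesion molecule for leukocytes, had its nearest site of another stage 54.4 kb away in MAC, and Vwf, the von Willebrand factor, 10.6 kb away in MAC. Of the endothelial transcription factors 12 of 34 held a member but only Erg, Nr2f2 and Sox18 were apart (8.82%, near the 8.96% of all listed genes). The other 9, such as Bcl6b, Etv2, Foxo1, Klf4, Lyl1 and Prox1, had a site of another stage overlapping the HE site or within 1 kb of it. Etv2, which initiates the endothelial and blood lineages, overlapped MES, HB and HP sites by 700, 1000 and 550 bp.

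As a check of the HE label, all 13 markers of hemogenic endothelium that were listed had a promoter region in HE, as had 61% of all protein-coding genes. Tek, Cdh5, Cd34, Sox18, Erg and Fli1 held a member. Kit, Sox7, Sox17, Tal1, Lmo2 and Runx1 had no HE-only promoter region, and their HE regions were shared with between 1 and 4 other stages. Pecam1 was listed in HE and HP. Tek and Kit code for the antigens of the sort, so their sites are no independent evidence of the cell type. Of 28 macrophage markers 2 held a member, Fcgr4 and Tlr4, both overlapping a MAC site, and 22 (78.6%) had a MAC-only promoter region, as had 6.11% of all protein-coding genes. None of 22 erythroid markers held a member, and 1 had a MAC-only promoter region.

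Blood transcription factors held a member in 9 of 33 genes, and the apart ones were Myb, Hoxa9, Mecom, Nfix and Runx2. The HE site of Myb, a factor needed for definitive blood stem cells, was 2700 bp wide, the widest of the apart class. The site covered the TSS and ran into the gene, and its region was centred 1323 bp downstream (chr10:21159411-21159910). MES, HB and HP sites were 12.7, 12.8 and 12.8 kb away and a MAC site 80.9 kb away. Hoxa9, which marks definitive blood progenitors, had a member on either side of its TSS, 1761 bp downstream and 1789 bp upstream. Runx2 had members 152 and 1202 bp downstream. Meis1, Gata3, Ldb1 and Bcl11a held members that overlapped sites of other stages.

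Among signalling genes, the Wnt list held members in 18 of 52 genes. They were 7 of 18 ligands, 5 of 13 receptors and co-receptors, both Dkk1 and Dkk2 of the 3 Dkk antagonists, and Axin2, Ctnnb1, Lef1 and Tcf7 downstream. Apart were Wnt2, Wnt4, Wnt5a, Wnt5b, Wnt9a, the receptor Ryk and Dkk2. Wnt2 had no site of another stage closer than 76.7 kb. Wnt5a, a ligand of the non-canonical pathway, held 3 members, of which 2 overlapped an HB site by 272 and 828 bp and the third, at another TSS, was 3.37 kb from one. Members at 14 of 44 BMP and TGF-beta genes were apart only at Acvrl1 and Bmp2. In the Notch list 5 of 32 genes held a member, and the endothelial receptor Notch4 was the apart one, with a MAC site 2.34 kb away and the other stages over 21 kb away. Of the Hippo list, which holds the TEAD factors and their regulators, Sav1 and Tead1 of 28 genes held a member and neither was apart.

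Genes of axon and vessel guidance held a member in 26 of 66 genes (39.4%), and 9 (13.6%) were apart. Semaphorins held members at 7 of 20 genes, their receptors the plexins at 5 of 9, slits and robos at 5 of 7 and ephrins with Eph receptors at 6 of 20. No ephrin or Eph gene was apart. Sema3a had its member 33 bp from the TSS with no site of another stage within 75.8 kb. Basement membrane and matrix genes held members at 15 of 60 genes, with Col4a5, Col5a2, Eln, Lama4, Mmp2 and Sparcl1 apart (10% of the list). The laminin gene Lama4, which codes for a chain of vessel basement membranes, was 167 kb from the nearest site of each other stage. Of the chemokine and cytokine list 8 of 76 genes held a member (10.5%).

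Lists of other tissues also held members. Cardiac genes did at 6 of 25, with Hand2, Nkx2-5, Myh7 and Tnnt2 apart, and neural markers at 4 of 30, such as Nefm and Pax6, all apart. At Myh7, a myosin heavy chain of heart and slow muscle, the nearest sites of all 4 other stages were 19.3 to 19.5 kb away. Epithelial markers held members at 6 of 25 genes and smooth muscle and mesenchyme markers at Prrx1 and Twist1 of 24. Whether such cells were present in the sorted HE cannot be told from site lists.

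**Figure D4:**
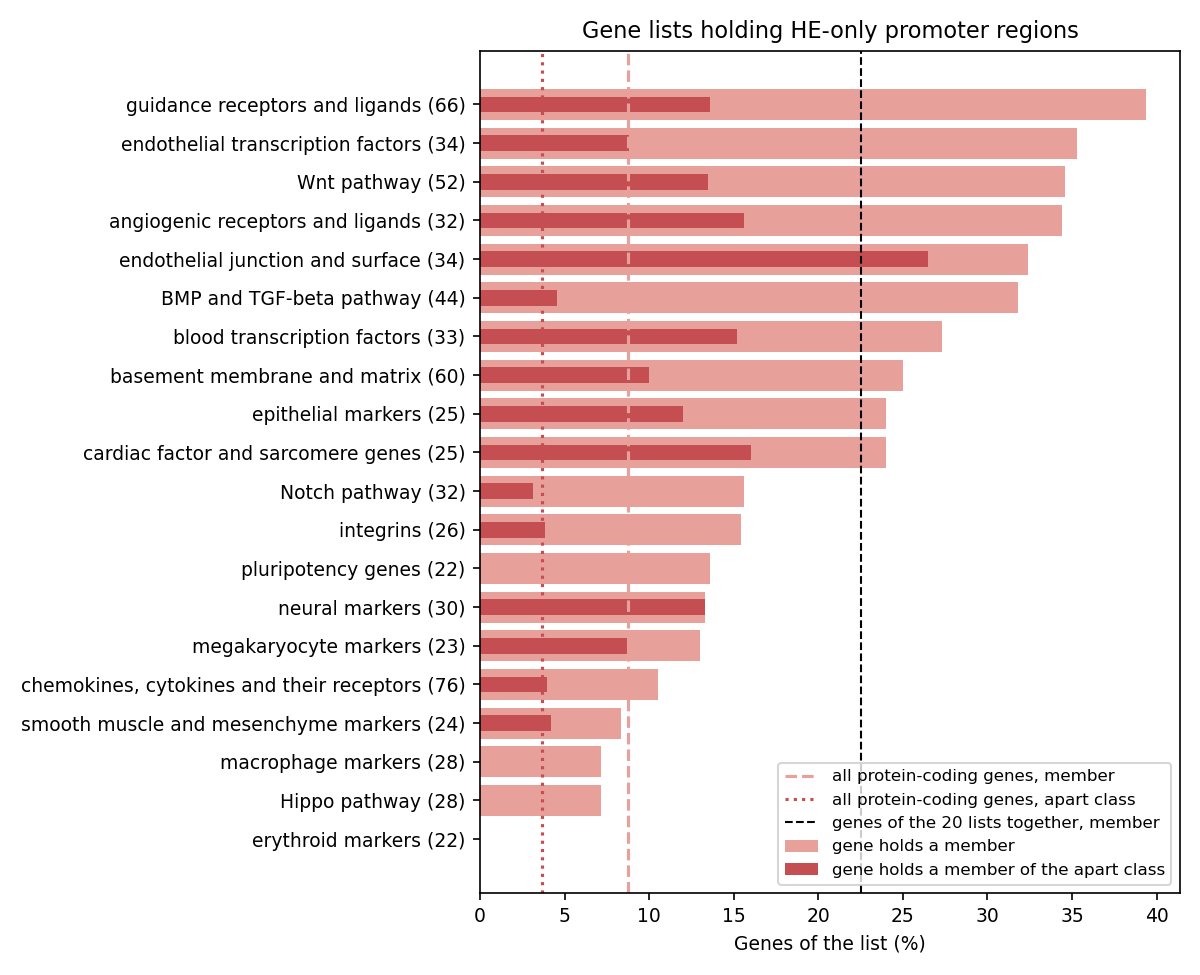
Share of the genes of each list (horizontal axis, %, with the number of genes having a coding TSS in brackets) whose promoter held a member (light bars) or a member of the apart class (dark bars), with the shares of all protein-coding genes and of all listed genes as lines. Guidance genes lead with 39.4%, and the junction and surface list has the highest dark bar with 26.5%.

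The widest HE sites of the apart class, beside Myb and Robo4, were at Prkg1 and Bmp2 (2300 bp each) and at Cav1, Edil3 and Nol4l (2000 bp each). Cav1 codes for caveolin-1, the coat protein of endothelial caveolae. Its region lay 574 bp downstream of the TSS (chr6:17306659-17307158) and the nearest sites of MES, HB, HP and MAC were 240, 156, 24.4 and 21.7 kb away. Prkg1, the cGMP-dependent kinase that acts in nitric oxide signalling, had members at both of a pair of promoters, 853 bp downstream and 10 bp upstream of their TSS. Edil3, a vessel matrix ligand of integrins, had a MAC site 5.04 kb away and no site of MES, HB or HP within 716 kb. At Magi2 the nearest site of another stage was 663 kb away. Sites at the TSS with nothing listed nearby in other stages were found at genes of several tissues, among them the potassium channel gene Kcnc2, the neuropeptide gene Nts, the protease gene Adamts5 and the receptor gene Gpr37. At Adamts5 the nearest sites of MES, HB, HP and MAC were 96.1, 97.2, 98.8 and 97.2 kb away.

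The members held fewer of the motifs of CpG-rich promoters than other promoter regions did. Each motif was searched as exact letters on both strands of the central 500 bp. The ETS letters CCGGAA were in 18.0% of members, 30.4% of all promoter regions and 44.4% of those listed in all 5 stages. GGGCGG, bound by SP factors, was in 43.2% of members and 68.5% of all promoter regions. Within CpG-rich regions the order stayed, with CCGGAA in 22.7% of members and 37.7% of all promoter regions, GGGCGG in 66.0% and 84.2%, and CCAAT, bound by NFY, in 25.1% and 42.0%. The letters read in reverse order served as a comparison in the same CpG-rich sets. Reversed CCGGAA was in 22.3% of members and 27.6% of all promoter regions, and reversed GGGCGG in 64.9% and 85.0%, so the lower share of GGGCGG was also present for its reversed letters. Reversed CCAAT was in 29.4% and 26.8%, the other way round from CCAAT. Since more members were centred away from the TSS, position moves with these shares, and its part was not tested.

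Motifs of endothelial and blood regulators were compared with other promoter regions of like CpG content. Among regions that were not CpG-rich, the GATA factor letters AGATAA were in 20.1% of apart members (n = 513) and 17.6% of all promoter regions, the RUNX factor letters in 32.7% and 29.8%, and the SOX factor letters in 31.2% and 30.2%. The TEAD factor letters CATTCC were in 29.8% of the apart members and 24.8% of all promoter regions, with the reversed letters at 16.2% and 16.3%. CAGGAA, the other ETS core, was in 58.9% of them (54.6% to 63.0%) and in 52.3% of all such promoter regions, with the reversed letters at 28.1% and 26.2%. Of these 5, the intervals of CAGGAA, which was added after the data were seen, were apart (50.9% to 53.6% for all promoter regions), those of the TEAD letters met at 26.0% and the others overlapped. TGGGAA, bound by the Notch effector RBPJ, was in 51.1% of the same apart members (46.8% to 55.4%) and 44.8% of the promoter regions (43.5% to 46.1%), with the reversed letters at 27.5% and 26.1%. ACAATG, another SOX form that was also added, was in 17.9% and 15.4%. The CAGGAA share of the apart members was near that of MAC-only promoter regions that are not CpG-rich (59.2%), and among CpG-rich regions it was 34.3% (28.9% to 40.2%) against 32.6% of all promoter regions. For the TEAD letters the central 200 bp gave 10.7% of apart members and 10.9% of all promoter regions, and overlapping members that are not CpG-rich held them in 21.8% of the full 500 bp. Among CpG-rich regions, RUNX letters were in 21.1% of apart members (n = 265, 16.6% to 26.4%) and 15.4% of all promoter regions (14.7% to 16.1%), with the reversed letters at 16.6% and 14.6%. The GATA letters were there in 6.04% and 5.34%, the SOX letters in 18.1% and 17.0% and the TEAD letters in 12.1% and 15.1%, with overlapping intervals. Other letters were rarer in the same apart members. TGANTCA (N any base), for AP-1 factors, was in 1.51% (0.589% to 3.82%) and 4.85% of all promoter regions (4.46% to 5.27%). CACGTG, an E-box, was in 9.43% (6.47% to 13.6%) and 14.6% (13.9% to 15.2%). HE-only regions over 2 kb from a TSS and not CpG-rich held the GATA letters in 35.0%, the SOX letters in 42.3% and CAGGAA in 72.8%, above the intervals of the apart members. They held the TEAD letters in 34.7%, near the upper end of that interval (33.9%), and the RUNX letters in 34.6%, within it (28.8% to 36.9%). At the endothelial genes shown above the CAGGAA letters therefore recur, but they were common in all sets compared.

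**Figure D5:**
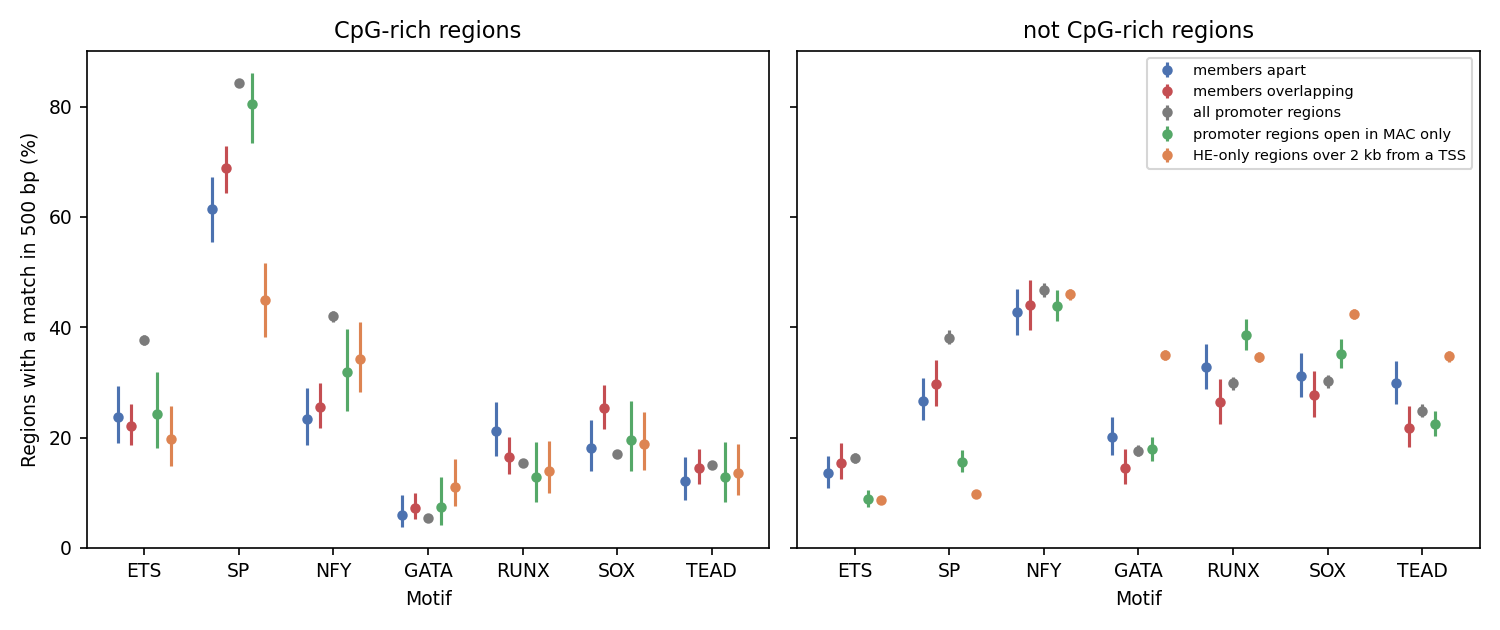
Share of regions with an exact match to each motif in the central 500 bp (vertical axis, %, points with 95% Wilson intervals) for apart members, overlapping members, all promoter regions, MAC-only promoter regions and HE-only regions over 2 kb from a TSS, split by CpG content. GATA letters reach 35.0% in the distal HE-only regions that are not CpG-rich and 20.1% in the apart members.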

How the data were processed

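As the methods describe, the authors trimmed reads with CutAdapt, aligned them to mm10 with Bowtie, kept unique reads, removed duplicates with Picard and called DNaseI sites with DFilter in 100 bp bins. HOMER is also named in the submitters' processing notes, and versions are not given in the sources used here. Each deposited list gives the start and end of sites in base pairs, 1 list per stage, without scores or read counts, so depth is unknown from the lists, and the read totals that the study tabulates were not used here. The lists held 21949 (MES), 24729 (HB), 33305 (HE), 17734 (HP) and 37456 (MAC) sites. The counts of MES, HB, HE and HP are those that the study tabulates. Its count for MAC is lower than that of the deposited list, and the reason is not given in the sources used here.

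Sites were merged and members chosen as described, with TSS of curated RefSeq mRNAs (25999 positions) on GRCm38.p6. The gap from each deposited HE interval to every other list was measured in Python 3.11.15 with pandas 2.3.3, NumPy 2.4.6, SciPy 1.17.1 and pysam 0.24.0. Steps were tested on simulated sites. No test between stages was made, since the design assumed none with 1 list each. The members, gene lists and motifs were chosen with earlier results of these data known. Named genes were those of the lists with a member, the 15 widest apart members, genes with 3 or more members, up to 15 members at a TSS with no other stage within 20 kb, and genes with most HE-only regions at 2 to 100 kb. CAGGAA and ACAATG were added after seeing the data.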

Additional observations from a re-analysis of the deposited data

How the results depend on the processing

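The number of members stayed within 1.5 times of 1913 when windows were chained at 1 bp (1515) or 250 bp (2781), with sites of at least the median width of their list, with a TSS within 1 kb, with all RefSeq transcripts and without any of the MES, HB, HP or MAC lists. It fell to 1055 with deposited intervals in place of windows, to 1225 when each list was trimmed to its 17734 widest sites, to 839 with a TSS within 500 bp and to 778 with no other site within 1 kb. Overlap with a site of another stage was always counted against the full deposited lists, also where narrow sites had been dropped. Its share was 5.50% with intervals, 34.3% and 64.1% with chaining at 1 and 250 bp, 80.2% with median width and 72.2% with the widest sites. It was 51.7% within 1 kb, 38.7% within 500 bp and 37.2% with all transcripts. In that order, and last with no other site within 1 kb, the CpG-rich share was 33.5%, 37.3%, 50.2%, 52.4%, 49.2%, 45.5%, 47.6%, 30.8% and 34.1%, and 31.1% under a stricter definition (GC 0.55, ratio 0.65). The share with another promoter region in another stage was 41.5% with intervals, 59.3% and 77.9% with chaining at 1 and 250 bp, 46.2% with median width, 53.0% within 500 bp, 62.7% with all transcripts and 21.9% with no other site within 1 kb. The share 250 to 1000 bp downstream, recomputed after seeing the data, was 31.9% with intervals, 39.9% and 48.2% with chaining at 1 and 250 bp, 49.1% with the widest sites, 55.2% within 1 kb, 38.0% within 500 bp, 36.0% with all transcripts and 31.4% with no other site within 1 kb. Counting any gene within 2 kb left 34 endothelial genes, and 10 of 20 motifs were more frequent in members than in all promoter regions (9 in the central 200 bp). No paired analysis was possible because each stage had 1 list.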

Other observations

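Members were on chromosome X in 3.40% of cases, the apart class in 5.53% (4.13% to 7.36%) and all promoter regions in 2.70%. Fgf13, Hs6st2, Lrch2, Klhl4 and Shroom4 were apart members on that chromosome, and the nearest sites of other stages at Fgf13, a growth factor homologue, were 978, 967 and 204 kb away in MES, HB and MAC. Members with at least 25% of the central 500 bp masked as repeat made up 7.06%, compared with 3.82% of all promoter regions and 13.3% of MAC-only promoter regions. Of neighbouring members 75 pairs lay within 10 kb of each other, 58 of them at the same gene, and 74 genes held 2 members. Wnt5a, Sall1 and Filip1 held 3. At Sall1, a factor of kidney and limb development, the 3 HE regions surrounded a region of MES and HB, with the first overlapping neither and the middle one overlapping the MES and HB sites by 371 and 401 bp.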
